A study of Sus scrofa with 19 samples.

Results

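Molecular chaperones and the folding machinery of the endoplasmic reticulum (ER) were described in the endometrium (uterine lining) of gilts, young female pigs (Sus scrofa), some of whose uterine horns had been infused with prostaglandin E2 (PGE2) and estradiol (E2). The genes were chosen by symbol. They are the heat shock protein (HSP) and J protein (DNAJ) families, the chaperonin subunits, the FKBP and PPI immunophilins, the BAG co-chaperones, the ER import genes (SEC61 to SEC63, SEC11, SSR), the ER chaperones and disulfide enzymes, and the regulators of the unfolded protein response. A gene was kept if a probe of it was well above background on at least 4 of the 19 arrays, and the probe with the highest mean signal stood for the gene. This gave 40 genes, out of 3010 genes of the array that could be named. Of the 40 genes, 37 were well above background on all 19 arrays. HSP90AB1 was so on 18, DNAJC5B on 11, and DNAJC6, just inside the limit, on 4. A second probe of DNAJC5B, well above background on 0 arrays, was the only one of the 129 probes with a matching symbol that fell outside. HSPA5, HYOU1, P4HB, the PDIA enzymes, ATF6 and ERN1 were not analysed here.

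All 10 gilts were crossbred animals of 8 months with synchronized estrus, and shared the same surgery and vehicle. Both uterine horns were cannulated on day 8 or 9 of the oestrous cycle and infused every 4 h during 24 h on days 11 to 12, counted from the onset of estrus. Hormone horns (n = 6 gilts) received 200 µg of PGE2 and 33.3 µg of E2 at each infusion in the vehicle, 5 mL of saline with 1% ethanol. Placebo horns (n = 5) were the opposite horns of the same treated gilts and received the vehicle alone. For gilt 40 only the hormone horn was analysed here. Control gilts (n = 4) received the vehicle in both horns, marked L and P, which gave 8 arrays. Every placebo horn carried the mark L and all hormone horns but that of gilt 40 the mark P, although the horn to be treated is stated to have been picked at random, and the labels do not say what the marks stand for. An effect of the horn mark and of the hormones can therefore not be told apart in treated gilts beyond what the P and L horns of control gilts show.

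Chaperones bind unfolded stretches of other proteins and release them in cycles of ATP hydrolysis, and J proteins and nucleotide exchange factors set the pace of these cycles. Proteins that will be secreted enter the ER through the SEC61 channel, are glycosylated, and fold with the help of calnexin, calreticulin, HSP90B1 and their J protein partners. When unfolded proteins accumulate in the ER, the unfolded protein response, which works through XBP1, ATF6 and ATF4, raises the supply of ER chaperones, whereas heat shock and related stress raise the inducible chaperones of the cytosol. The glandular epithelium of the endometrium secretes large amounts of protein into the uterine lumen around the time an early conceptus would signal its presence.

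Signals are given as log2 of the background-subtracted signal over the array's 75th percentile, so 0 marks the brightness of that percentile and levels of different genes are not compared. The 19 arrays had 79.1% to 88.4% of their spots well above background and a 75th percentile of 594 to 978 intensity units. EPCAM, CDH1, KRT8, ESR1, PGR and HOXA10, markers of uterine epithelium and endometrium, were well above background on all 19 arrays. The hormone horn of gilt 36 and both horns of gilt 47 stood apart from the other treated arrays, gilt 47 with high immune cell markers, so results are also given without them. In whole tissue, fewer cells of a type and less RNA per cell cannot be told apart.

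In hormone horns against control gilts, 11 of the 40 genes rose and HSPA1L fell (limma with the gilt as a random block, adjusted p under 0.05 over 39071 probes). Among all probes 6.86% passed as higher and 4.89% as lower. Among the 3010 named genes 13.1% passed as higher and 2.43% as lower, against 27.5% and 2.50% of the chaperone and folding genes. The genes that rose were the ER J proteins DNAJC3 and DNAJB11, calnexin (CANX), the import channel subunit SEC61A1, the stress regulator ATF4, the cytosolic chaperones HSPA8 and HSPH1, the chaperonin subunit CCT3, and the immunophilins FKBP4, FKBP1A and PPIA. The median difference was 0.35 log2 units over the 40 genes, 0.17 over all named genes and 0.01 over all probes. Of the 40 genes 32 had a positive value, as had 1985 of the 3010 named genes and 20092 of the 39071 probes. In 8 of the 40 genes every hormone horn lay above every control horn, which held for 3.96% of all probes. In 0 of the 40 every hormone horn lay below (2.96% of all probes).

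**Figure D1:**
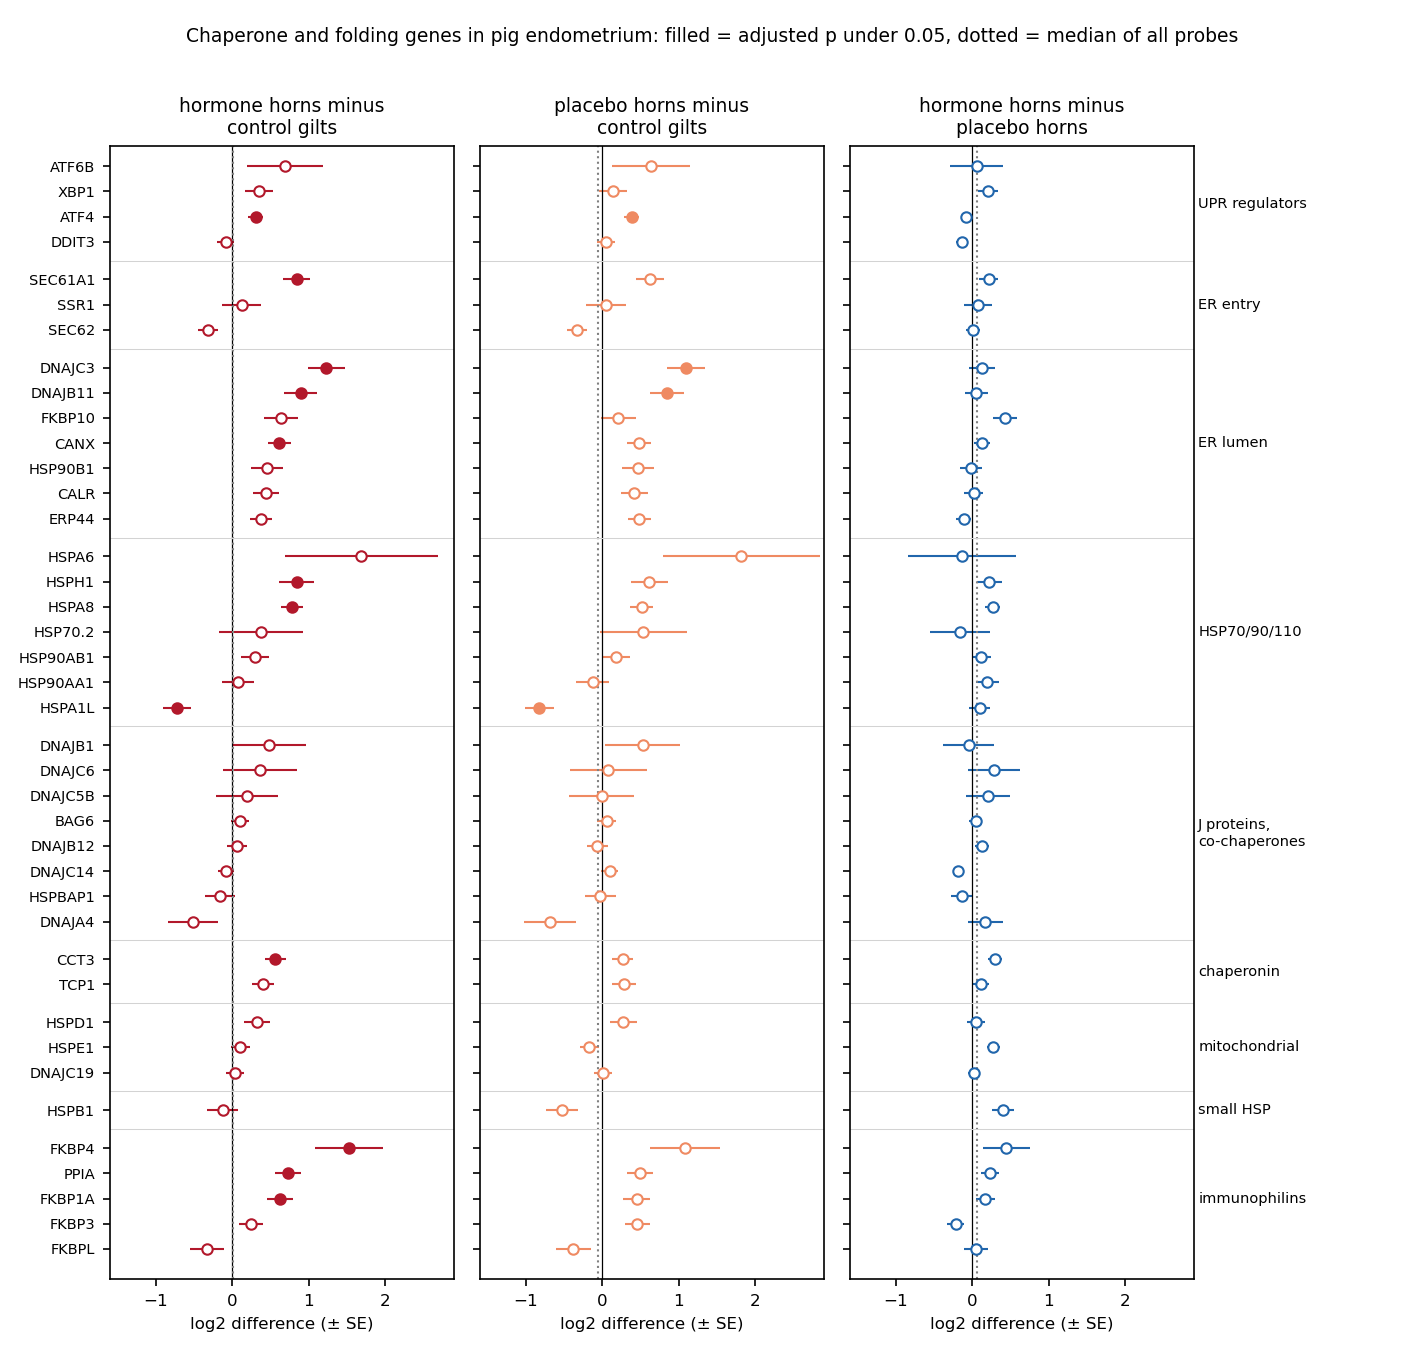
Log2 difference ± SE of each of the 40 genes, grouped by role, for hormone horns minus control gilts, placebo horns minus control gilts and hormone minus placebo horns. Filled points passed at an adjusted p under 0.05 and dotted lines mark the median of all probes. The largest values that passed are FKBP4 (1.53) and DNAJC3 (1.23) in the left panel, and no point is filled in the right panel.

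DNAJC3 (P58IPK), an ER J protein that serves the chaperone HSPA5 and restrains the kinase PERK, had signals of 0.98 (lowest), 1.69 (median) and 2.25 (highest) in hormone horns, against 0.05, 0.39 and 0.50 in control horns. Its values in placebo horns were 0.77, 1.35, 1.28, 1.21 and 2.55 (gilts 36, 38, 41, 44 and 47). Every hormone and every placebo horn lay above every control horn, and both horns of gilt 47 were the highest. The rise was 1.23 ± 0.24 log2 units in hormone horns (2.35-fold, difference ± SE, adjusted p = 0.00544) and 1.10 ± 0.25 in placebo horns (adjusted p = 0.0277). It passed in hormone horns whichever gilt was left out (1.10 to 1.35), and in placebo horns it did not pass without control gilt 9, 14 or 28 (highest adjusted p = 0.102).

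DNAJB11 (ERdj3), the J protein that hands unfolded clients to HSPA5 and can be secreted with them, had 2.04 (lowest), 2.68 (median) and 2.91 (highest) in hormone horns and 1.42, 1.56 and 2.09 in control horns. The placebo horns had 1.85, 2.41, 2.41, 2.37 and 3.32. The groups overlapped: the P horn of control gilt 46, at 2.09, lay above the other control horns and above the hormone horns of gilts 36 and 38 and the placebo horn of gilt 36. DNAJB11 rose by 0.90 ± 0.22 in hormone horns (1.86-fold, adjusted p = 0.0143) and by 0.84 ± 0.22 in placebo horns (adjusted p = 0.0407), and all 3 of its probes passed in both. Without control gilt 9, 14 or 28 it passed in neither.

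CANX (calnexin), the ER membrane lectin that holds glycoproteins until they are folded, had 3.88 (lowest), 4.32 (median) and 4.67 (highest) in hormone horns, against 3.67, 3.72 and 3.87 in control horns. In placebo horns it had 3.62, 4.53, 4.03, 4.30 and 4.45, with gilt 36 below every control horn and the other 4 above them. All hormone horns exceeded all control horns, the lowest of them only just. The rise of 0.61 ± 0.15 in hormone horns passed (adjusted p = 0.0159), and the value of 0.48 ± 0.16 in placebo horns did not (adjusted p = 0.0764). The rise did not pass without control gilt 9, 14 or 28 (highest adjusted p = 0.0601). CALR (calreticulin), the soluble lectin of the same cycle, was at 0.44 ± 0.17 in hormone horns (adjusted p = 0.105) and 0.42 ± 0.18 in placebo horns (adjusted p = 0.162). Its hormone horns had 1.71 (lowest), 2.18 (median) and 2.61 (highest), against 1.58, 1.75 and 1.87 in control horns, and 5 of 6 lay above all control horns.

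HSP90B1 (GRP94), the HSP90 of the ER, passed on some of its probes and not on others. Its brightest probe had 5.46 (lowest), 5.75 (median) and 6.48 (highest) in hormone horns, 5.29, 5.94, 5.74, 5.90 and 6.61 in placebo horns, and 5.25, 5.36 and 5.55 in control horns, with 4 hormone and 4 placebo horns above every control horn. The difference of 0.45 ± 0.20 did not pass in hormone horns (adjusted p = 0.16), nor did 0.47 ± 0.21 in placebo horns (adjusted p = 0.19). Of its 8 probes all were positive in both comparisons, 4 passed in hormone horns (0.45 to 0.70 over the 8) and 7 in placebo horns (0.47 to 0.91). The thiol enzyme ERP44, which retrieves unassembled secretory proteins, was at 0.37 ± 0.14 in hormone horns (adjusted p = 0.0976) and 0.48 ± 0.15 in placebo horns (adjusted p = 0.0636), where all 5 arrays lay above all controls. FKBP10, a prolyl isomerase that helps procollagen fold, was at 0.64 ± 0.22 in hormone horns (adjusted p = 0.0672). All 7 ER lumen genes thus had positive values in hormone horns and in placebo horns, as had 1985 and 1767 of the 3010 named genes. Of the 7 genes 3 and 2 passed, where 13.1% and 3.72% of named genes passed as higher. The median of the 7 genes per array, relative to control gilts, was 0.19 to 1.09 in hormone horns and 0.21 to 1.10 in placebo horns. In control horns, which lie near 0 by construction, it was -0.14 to 0.13, without overlap. Over all named genes it was 0.01 to 0.34, -0.01 to 0.14 and -0.04 to 0.03 in hormone, placebo and control horns, which overlapped.

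Of the 3 ER entry genes 1 rose in hormone horns, where 13.1% of named genes passed as higher. SEC61A1, the pore subunit of the import channel, had -1.07 (lowest), -0.85 (median) and -0.51 (highest) in hormone horns, -1.51, -0.89, -0.77, -1.27 and -0.58 in placebo horns, and -1.87, -1.65 and -1.36 in control horns. All hormone horns lay above all control horns, whereas the placebo horn of gilt 36 lay among them. It rose by 0.84 ± 0.18 in hormone horns (1.79-fold, adjusted p = 0.00724), whichever gilt was left out (0.78 to 0.90), and its 0.62 ± 0.18 in placebo horns narrowly missed the threshold (adjusted p = 0.0553). SEC62, a partner of the channel for short precursors, was at -0.31 ± 0.13 (adjusted p = 0.125), and the translocon-associated SSR1 at 0.13 ± 0.25 (adjusted p = 0.793), both in hormone horns. SEC62 probes disagreed, with 4 of 5 negative.

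Among the regulators of the unfolded protein response, ATF4, the transcription factor translated when eIF2α is phosphorylated, rose slightly in both kinds of horn. It had 4.70 (lowest), 4.87 (median) and 5.14 (highest) in hormone horns, 4.68, 5.15, 5.06, 4.98 and 5.01 in placebo horns, and 4.50, 4.56 and 4.70 in control horns. All hormone horns lay above the highest control horn, the lowest only just, and the placebo horn of gilt 36 lay within the control range. The rises were 0.31 ± 0.10 (1.24-fold, adjusted p = 0.0483) and 0.39 ± 0.10 (adjusted p = 0.0399), and 5 of its 6 probes passed in each. In hormone horns the call of the chosen probe was lost without 8 of the 10 gilts (highest adjusted p = 0.148). In placebo horns it passed in 3 of the 10 fits that left out a gilt (highest adjusted p = 0.128). Under 13 other settings the chosen probe passed in 5 in hormone horns and in 6 in placebo horns, quantile normalization in neither.

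XBP1, the factor that IRE1 activates by splicing, had 5.75 (lowest), 6.49 (median) and 6.88 (highest) in hormone horns and 5.73, 6.04 and 6.18 in control horns, a difference of 0.35 ± 0.18 that did not pass (adjusted p = 0.228). All 6 of its probes were positive (0.35 to 0.74) and 3 of them passed in hormone horns, against 0 in placebo horns. Spliced and unspliced XBP1 were not told apart here. DDIT3 (CHOP), the factor of prolonged ER stress, had -2.59 (lowest), -2.30 (median) and -2.13 (highest) in hormone horns and -2.55, -2.20 and -2.09 in control horns. Its groups overlapped throughout, and it was at -0.09 ± 0.11 (adjusted p = 0.664) and, in placebo horns, 0.05 ± 0.12 (adjusted p = 0.845). ATF6B, a relative of the ER stress sensor ATF6, was at 0.69 ± 0.49 in hormone horns (adjusted p = 0.39), and the L horn of control gilt 28, at -4.68, lay far below the other control horns.

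In the cytosol, HSPA8 (HSC70), the constitutive HSP70, had 7.23 (lowest), 7.39 (median) and 7.80 (highest) in hormone horns, 6.96, 7.13, 7.19, 7.06 and 7.44 in placebo horns, and 6.28, 6.62 and 6.93 in control horns. No hormone or placebo horn overlapped with a control horn. It rose by 0.78 ± 0.14 in hormone horns (1.72-fold, adjusted p = 0.00379), the smallest adjusted p of the 40 genes, and passed whichever gilt was left out. In placebo horns it was at 0.51 ± 0.15 (adjusted p = 0.0521). HSPH1 (HSP110), the exchange factor that recycles HSP70, rose by 0.84 ± 0.23 in hormone horns (adjusted p = 0.0252) and was at 0.62 ± 0.24 in placebo horns (adjusted p = 0.125). Its hormone horns had 2.48 (lowest), 3.47 (median) and 4.00 (highest), against 1.95, 2.50 and 3.02 in control horns. Of the hormone horns only that of gilt 36 overlapped with the controls, as did the placebo horn of gilt 36 (2.29). HSPH1 did not pass without gilt 9, 14, 28 or 38 (highest adjusted p = 0.11), nor under 5 of 13 other settings, quantile normalization among them.

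HSPA1L, a testis-enriched member of the HSP70 family in other mammals, was the only gene that fell. It had -2.74 (lowest), -2.37 (median) and -1.82 (highest) in hormone horns, -1.90, -2.19, -2.56, -2.24 and -3.09 in placebo horns, and -1.89, -1.68 and -0.98 in control horns. Every placebo horn and every hormone horn but that of gilt 36 lay below every control horn. The differences were -0.72 ± 0.19 (adjusted p = 0.0213) and -0.82 ± 0.20 (adjusted p = 0.0314), and neither passed without control gilt 9, 14 or 28. Its sequence is close to that of other HSP70 genes, HSPA6 and HSP70.2 among them, and which of them its probe reads was not tested. The HSP90 genes of the cytosol did not pass on their brightest probes. HSP90AB1, the constitutive form, was at 0.30 ± 0.18 in hormone horns (adjusted p = 0.311, with the L horn of control gilt 28 left out for an outlier spot), and HSP90AA1, the inducible form, at 0.07 ± 0.21 (adjusted p = 0.861). HSP90AA1 had 4.90 (lowest), 5.33 (median) and 5.80 (highest) in hormone horns and 4.68, 5.37 and 5.55 in control horns, which overlapped. Of their 6 probes each, all were positive and 1 passed as higher in hormone horns. The brightest HSP90AA1 probe gave the lowest of its 6 values there, whose median was 0.39. The HSP90AA1 probe that passed was at 0.72 (adjusted p = 0.00572) and passed in placebo horns too (0.55, adjusted p = 0.0421).

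The chaperonin TRiC, the ring that folds actin and tubulin, was represented by CCT3 and TCP1. CCT3 had 4.75 (lowest), 5.10 (median) and 5.47 (highest) in hormone horns, 4.78, 4.78, 4.65, 4.72 and 5.01 in placebo horns, and 4.43, 4.57 and 4.60 in control horns, with no overlap between treated and control gilts. It rose by 0.56 ± 0.14 in hormone horns (adjusted p = 0.0144) and was at 0.27 ± 0.14 in placebo horns (adjusted p = 0.254). The rise did not pass without gilt 9 (adjusted p = 0.0577), with control horns averaged, or with arrays centred on the probes with a symbol. TCP1 had 4.81 (lowest), 5.21 (median) and 5.75 (highest) in hormone horns, 5.25, 5.13, 5.04, 5.08 and 5.38 in placebo horns, and 4.74, 4.87 and 4.96 in control horns, and only the hormone horn of gilt 38 lay within the control range. It was at 0.40 ± 0.15 in hormone horns on its brightest probe (adjusted p = 0.0833), while the other 4 probes passed, over a range of 0.40 to 0.59 for all 5. None of the 3 mitochondrial chaperones passed. The chaperonin HSPD1 (HSP60) had 2.92 (lowest), 3.26 (median) and 4.06 (highest) in hormone horns and 2.87, 3.05 and 3.23 in control horns, and was at 0.32 ± 0.17 (adjusted p = 0.238), with all 12 probes positive and 1 passing, and its partner HSPE1 (HSP10) at 0.11 ± 0.12 (adjusted p = 0.621). The small heat shock protein HSPB1, an actin-binding chaperone, had 4.39 (lowest), 4.69 (median) and 5.30 (highest) in hormone horns, 4.42, 4.43, 4.40, 4.24 and 4.03 in placebo horns, and 4.15, 4.93 and 5.33 in control horns, which overlapped with both. It was at -0.13 ± 0.20 in hormone horns (adjusted p = 0.729) and -0.53 ± 0.21 in placebo horns (adjusted p = 0.132).

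Of the 5 immunophilins outside the ER lumen, 3 rose in hormone horns, where 13.1% of named genes passed as higher. FKBP4 (FKBP52), which binds HSP90 in steroid receptor complexes and is required in the mouse uterus for progesterone action, had 0.61 (lowest), 1.27 (median) and 1.97 (highest) in hormone horns, 1.40, 0.59, 0.92, 0.62 and 0.74 in placebo horns, and -2.58, 0.02 and 0.55 in control horns. Every hormone and placebo horn lay above every control horn. It rose by 1.53 ± 0.44 (2.88-fold, adjusted p = 0.0319), the largest rise that passed, and was at 1.08 ± 0.45 in placebo horns (adjusted p = 0.158). The L horn of control gilt 28, at -2.58, lay far below the others. Over the fits that left out a gilt the difference was 1.12 to 1.77. It was lowest without gilt 28, and there below the 1.23 of DNAJC3 over all gilts, so the rank of FKBP4 rests on that horn. The rise of FKBP4 did not pass without gilt 14, 36, 41 or 44 (highest adjusted p = 0.077).

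PPIA (cyclophilin A), an abundant prolyl isomerase often used as a reference gene, had 6.08 (lowest), 6.63 (median) and 6.95 (highest) in hormone horns, 6.21, 6.39, 6.02, 6.19 and 6.75 in placebo horns, and 5.72, 5.85 and 5.91 in control horns, which spanned the narrowest range of the 3 groups. It rose by 0.73 ± 0.17 in hormone horns (1.66-fold, adjusted p = 0.0111), whichever gilt was left out, and was at 0.49 ± 0.17 in placebo horns (adjusted p = 0.0966). FKBP1A (FKBP12), the target of the drug FK506 and a partner of calcium channels, had 2.63 (lowest), 3.11 (median) and 3.40 (highest) in hormone horns and 2.31, 2.37 and 2.76 in control horns. Of the hormone horns only that of gilt 38 lay within the control range, as did the placebo horns of gilts 41 and 44. FKBP1A rose by 0.62 ± 0.17 in hormone horns (adjusted p = 0.0265), with 4 of its 5 probes passing, and did not pass without gilt 9, 14, 28, 36 or 44. FKBP3 was at 0.25 ± 0.16 and FKBPL at -0.32 ± 0.22 in hormone horns, and neither passed (adjusted p = 0.328 and 0.366).

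**Figure D2:**
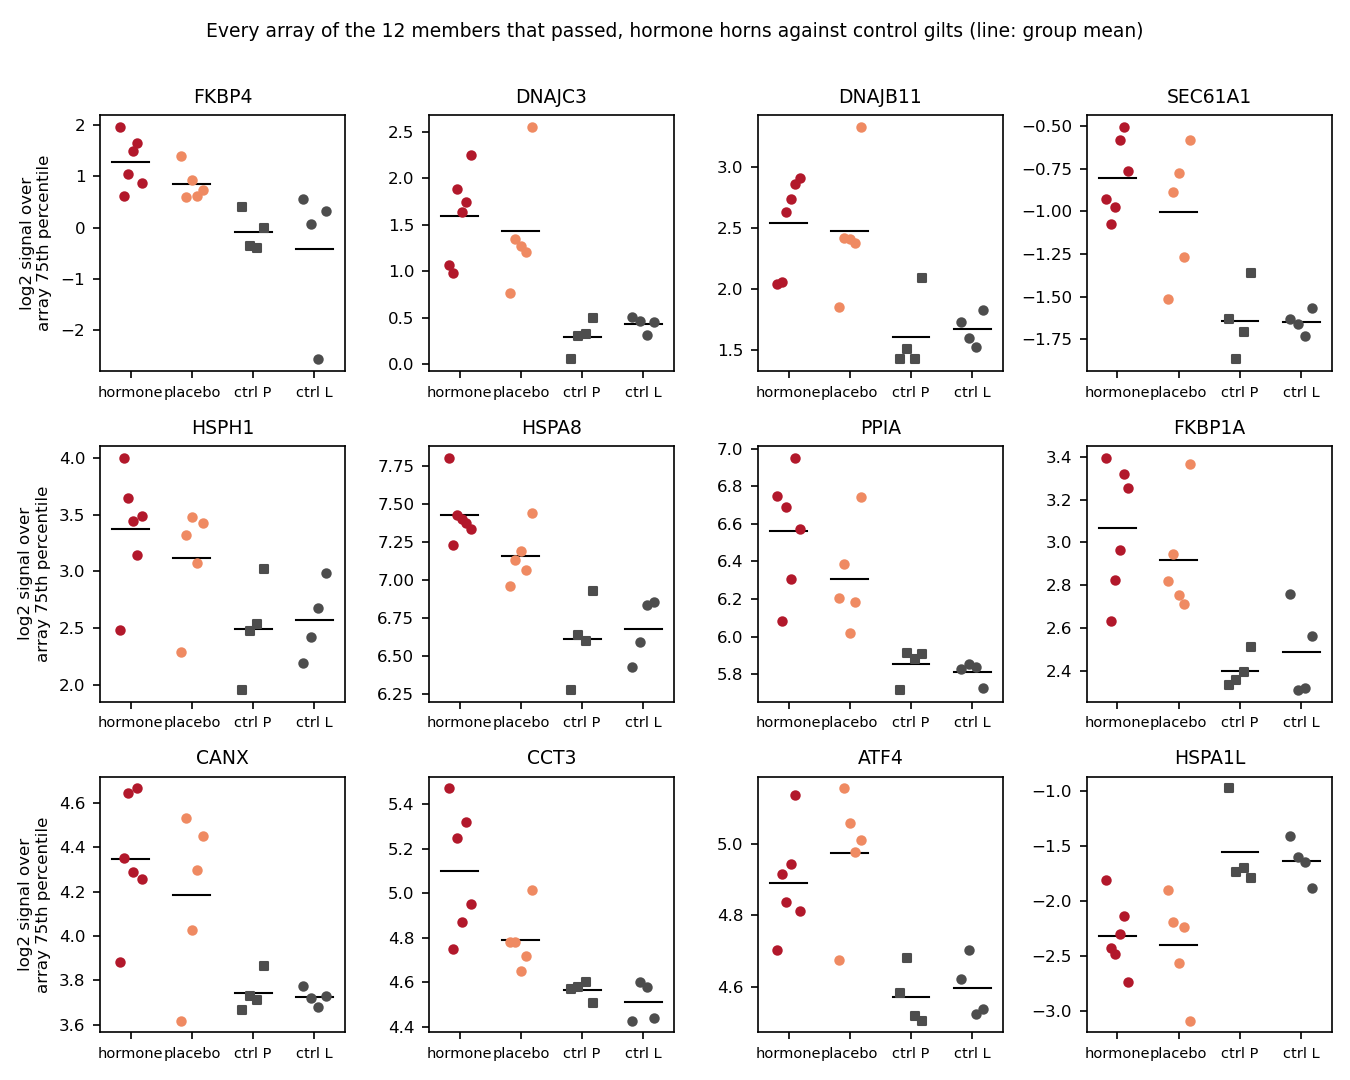
Every array of the 12 genes that passed in hormone horns against control gilts, as log2 signal over the array's 75th percentile, with a line at each group mean. The 6 hormone horns, 5 placebo horns, and 4 P and 4 L horns of control gilts are shown. HSPA8, PPIA, DNAJC3, FKBP4 and CCT3 show no overlap of either treated group with the control horns.

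None of the 8 other J proteins and co-chaperones passed in either comparison against control gilts, and their median was 0.08 in hormone horns. Among named genes 13.1% passed as higher in hormone horns and 3.72% in placebo horns. DNAJB1 (HSP40), the main inducible partner of HSP70, was at 0.48 ± 0.47 in hormone horns (adjusted p = 0.552), and DNAJA4 at -0.51 ± 0.33 (adjusted p = 0.334). DNAJA4 was lowest in gilt 47, at -0.32 in its hormone horn and -0.56 in its placebo horn, while control horns had 0.90, 1.46 and 1.75. BAG6, which sorts tail-anchored and mislocalised proteins, was at 0.11 ± 0.12, the ER-membrane J protein DNAJB12 at 0.06 ± 0.13, DNAJC14 at -0.09 ± 0.10 and HSPBAP1 at -0.16 ± 0.20. DNAJC6 (auxilin), which uncoats clathrin vesicles, and DNAJC5B were near background on many arrays.

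In placebo horns against control gilts, DNAJC3, DNAJB11 and ATF4 rose and HSPA1L fell, which makes 3 and 1 of the 40 genes. Among all probes 2.56% passed as higher and 1.93% as lower, and among named genes 3.72% and 0.831%, against 7.50% and 2.50% of the 40. The median was 0.27 over the 40 genes, 0.08 over named genes and -0.06 over all probes, and 30 of the 40 values were positive. So were 1767 of the 3010 named genes and 17285 of the 39071 probes. Every placebo horn lay above every control horn for 7 genes (3.08% of all probes), namely CCT3, DNAJC3, ERP44, FKBP4, HSPA8, PPIA and TCP1. HSPA1L alone lay below them in every placebo horn (2.75% of all probes). Both comparisons use the same control arrays and 5 of the same gilts, so they are not independent. These 4 calls depended on single gilts of both kinds. None of the 40 genes passed without control gilt 9, 14 or 28 (0.356%, 0.0102% and 0% of all probes). DNAJC3 alone passed without treated gilt 38, 41 or 47 (1.06%, 2.38% and 1.06% of all probes), and 9 passed without treated gilt 36 (8.21%). The calls over the whole array thus moved with the gilt left out, and this was not particular to the 40 genes. None of the 40 passed when both horns of a control gilt entered as their mean, and neither did any of the 39071 probes. In the blocked fit 9278 of 39071 probes and 17 of the 40 genes had an unadjusted p under 0.05.

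Hormone and placebo horns of treated gilts were compared to ask what the infused horn showed beyond its partner. No chaperone or folding gene passed (limma), and 1 of 39071 probes did, or 0.00256%. At an unadjusted p under 0.05 there were 6 of the 40 genes, or 15.0%, and 9.83% of all probes. The median difference was 0.11 over the 40 genes and 0.06 over all probes. The hormone horn was the higher in all 5 gilts for FKBP4, HSPB1 and HSPE1 (5.17% of all probes), and the lower in all 5 for DNAJC14 (2.45% of all probes).

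HSPE1 had the smallest p of the 40 genes at 0.27 ± 0.09 (adjusted p = 0.317), with differences of 0.43, 0.16, 0.14, 0.42 and 0.16 in treated gilts 36, 38, 41, 44 and 47. The differences of the P from the L horn in control gilts 9, 14, 28 and 46 were 0.40, -0.14, -0.18 and 0.21, so the control gilts ranged almost as high as the treated ones. CCT3 followed at 0.30 ± 0.10 (adjusted p = 0.335), largest in gilts 36 and 44, where the hormone horn was 0.69 and 0.60 above the placebo horn. HSPB1 was at 0.40 ± 0.14 (adjusted p = 0.376), with 0.87, 0.25, 0.04, 0.48 and 0.36 in the 5 treated gilts and 0.37, -0.74, -0.45 and 0.03 in control gilts. In FKBP10 (adjusted p = 0.393) the difference was 0.66, -0.04, -0.09, 1.35 and 0.51, near 0 in 2 of the 5 gilts. HSPA8 was at 0.27 ± 0.10 (adjusted p = 0.4), with 0.84, 0.10, 0.21, 0.31 and -0.11 in treated gilts and -0.15, 0.05, -0.24 and 0.08 in control gilts.

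Genes that rose against control gilts did not pass between the horns. DNAJC3 was at 0.13 ± 0.17 (adjusted p = 0.778) and DNAJB11 at 0.06 ± 0.15 (adjusted p = 0.9). SEC61A1 was at 0.22 ± 0.12 (adjusted p = 0.558), higher in the hormone horn of 3 of 5 gilts. FKBP4 was higher in the hormone horn of all 5, by 0.57, 0.02, 0.58, 1.03 and 0.13, and did not pass at 0.45 ± 0.31 (adjusted p = 0.615). HSP90B1, which had not passed against control gilts on its brightest probe, was at -0.01 ± 0.14 between the horns (adjusted p = 0.982). These values do not show that the horns were alike, only that differences of this size were not told apart from the spread of 5 gilts.

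**Figure D3:**
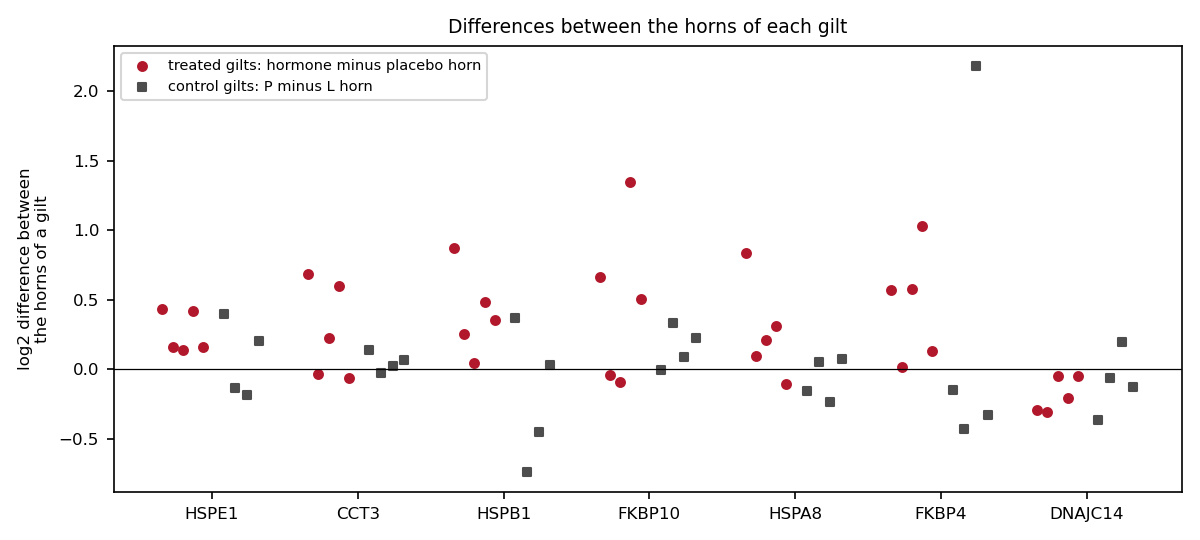
Differences between the horns of each gilt in log2 units for the 5 genes of smallest p between hormone and placebo horns, with FKBP4 and DNAJC14. Circles are hormone minus placebo horn in 5 treated gilts and squares P minus L horn in 4 control gilts. FKBP4, HSPB1 and HSPE1 are above 0 in all 5 treated gilts, and at least 1 control difference lies within the treated range for each gene but FKBP4, where 3 control gilts lie below that range and gilt 28 above it.

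Between the P and L horns of control gilts, which both received vehicle, 0 of the 40 genes passed (limma, 0.0% of all probes). None of the 40 reached an unadjusted p under 0.05, and 942 of 39071 probes did. The values ran from -0.20 (HSPB1) to 0.69 (ATF6B), with a median of 0.01, and the L horn of gilt 28 was the far one for ATF6B.

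The inducible chaperones of the cytosol differed more between gilts than between the horns of a gilt. This was not particular to them. Gilt means of DNAJC3 spanned 2.12 and its horns differed by at most 0.53, and for CALR the values were 1.05 and 0.38. Such a range spans treated and control gilts, so it includes any difference between them. HSPA6 (HSP70B'), a strictly stress-induced HSP70 in human cells, had the widest range of the 40 genes. Averaged over its horns, HSPA6 was at -3.51 in treated gilt 36, at 1.5, 2.02, 1.74, 2.05 and 1.51 in treated gilts 38, 40, 41, 44 and 47, and at -3.57, -1.37, 0.80 and 0.53 in control gilts 9, 14, 28 and 46. The range between gilts was 5.62, while the horns of the same gilt differed by at most 1.5 and by a median of 0.32 over 9 gilts. It was at 1.69 ± 1.00 in hormone horns (adjusted p = 0.294) and 1.82 ± 1.03 in placebo horns (adjusted p = 0.292), the largest differences and the largest standard errors of the 40 genes.

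HSP70.2, an inducible HSP70, showed the same low gilts, with 2.10 in treated gilt 36 and 2.06 in control gilt 9, against 3.97 to 5.03 in the other treated gilts and 3.56 to 4.53 in the other control gilts. DNAJB1 was at 3.21 in gilt 36 and 3.09 in gilt 9, with 4.89 to 5.55 in the other treated gilts and 4.07 to 5.38 in the other control gilts. HSPH1, induced together with them under heat shock, was lowest in the same gilts (2.39 and 2.07), but its other treated gilts, at 3.11 to 3.66, all exceeded its other control gilts, at 2.45 to 3.0. Gilts 36 and 9 were the only gilts that shared a slide (slide 6), so animal and slide cannot be told apart. Gilt 44, scanned on the same day as both, was not low. The calls of HSPA6 and HSPH1 depended on these gilts. Without gilt 36 both passed as higher in hormone and in placebo horns, and without gilt 9 neither passed in any comparison. Leaving out the low treated gilt while the low control gilt stays raises the difference by construction, so the calls without gilt 36 are no support for a rise.

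**Figure D4:**
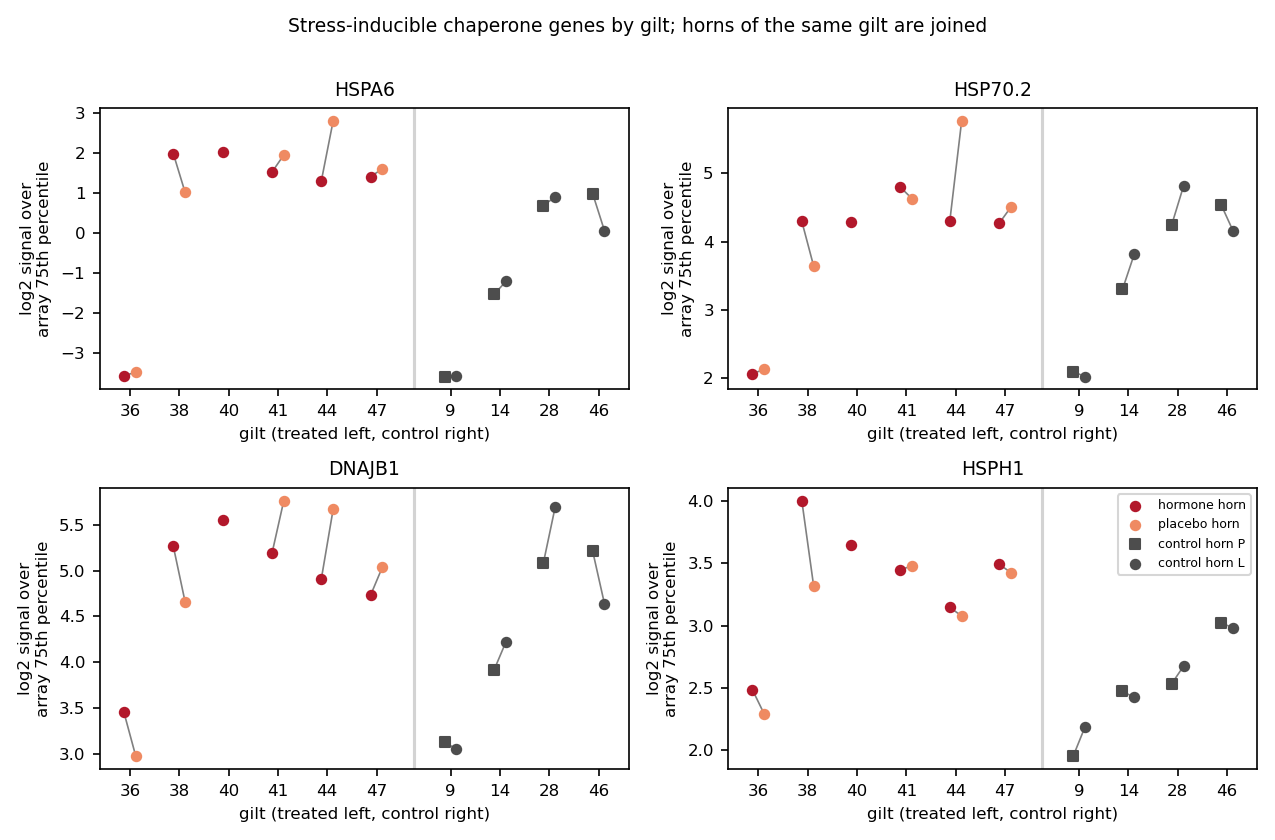
Log2 signal over the array's 75th percentile of HSPA6, HSP70.2, DNAJB1 and HSPH1 in each gilt, treated gilts on the left and control gilts on the right of each panel, with the horns of a gilt joined. Both horns of treated gilt 36 and of control gilt 9 are the 4 lowest arrays for HSPA6, HSP70.2 and DNAJB1, and the mean of each of these gilts is lower than that of any other gilt in every panel.

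Other genes of the same pathways, outside the families above, were also followed. Of a list of 80, 18 were measured by a named probe. In hormone horns 9 of the 18 rose and 0 fell, with a median of 0.41, and in placebo horns 1 rose, with a median of 0.32. Of all named genes 13.1% passed as higher in hormone horns and 3.72% in placebo horns, and the share of the list in placebo horns, 5.56%, was near the last. Those that rose included the oligosaccharyltransferase subunits RPN1 (0.78 ± 0.18, adjusted p = 0.0109), RPN2 (0.72 ± 0.16, adjusted p = 0.00891) and DDOST (0.58 ± 0.13, adjusted p = 0.00873), which attach N-glycans in the ER. SELENOS, a part of ER-associated degradation, rose by 0.76, GANAB, the glucosidase that trims N-glycans, by 0.51, and SERPINH1, the collagen chaperone, by 0.62. The HSP90 co-chaperones CDC37 (0.58) and PTGES3 (0.38) rose as well, and so did SPCS1 of the signal peptidase (0.47, adjusted p = 0.0499). RPN1 was the gene that rose in placebo horns (0.74 ± 0.18, adjusted p = 0.0329). ERO1A, the oxidase that supplies disulfide bonds, was at 0.11 (adjusted p = 0.767), and the HSP90 partner CHORDC1 at -0.06 (adjusted p = 0.854).

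Markers of cell types moved between the same groups. Ranges, where given, are of the median marker of a list per array, relative to control gilts. Of 8 neutrophil markers 5 were measured and 3 passed as higher in hormone horns, with medians of 2.04 to 6.81 in hormone horns, -0.76 to 7.67 in placebo horns and -0.90 to 0.57 in control horns. PGLYRP1 of the same list had values of the other sign, -1.39 in hormone horns (adjusted p = 0.105) and -1.48 in placebo horns (adjusted p = 0.125). Of 7 macrophage markers 4 were measured and 2 rose in hormone horns (0.20 to 3.75, 0.09 to 3.90 and -0.62 to 0.34 in hormone, placebo and control horns). Of 9 markers of B and plasma cells, which have an extensive ER, 4 were measured and 0 passed (-0.16 to 2.64, -0.14 to 2.87 and -0.20 to 0.40), highest in gilt 47. Of 8 epithelial markers 3 were measured, and EPCAM and CDH1 rose in both kinds of horn, with medians of 0.35 to 0.89, 0.40 to 0.68 and -0.57 to 0.19. KRT8, the third, was at -0.32 in hormone horns (adjusted p = 0.376) and -0.16 in placebo horns (adjusted p = 0.717). Of 6 endothelial markers 5 were measured, and VWF (0.79), ENG (0.64) and CDH5 (0.61) rose in hormone horns. Of 7 stromal markers 3 were measured and COL1A2 rose there (0.75, adjusted p = 0.0275). Of 10 markers of T and NK cells 9 were measured, 8 had positive values that did not pass, and GZMB fell in hormone horns (-0.93, adjusted p = 0.0106). None of the 3 measured smooth muscle markers passed (0.10 to 1.40, -0.79 to 0.34 and -0.74 to 2.24), and the P horn of control gilt 9 was highest. Between hormone and placebo horns all 3 were positive and 2 had an unadjusted p under 0.05 (limma, 9.83% of all probes). All 6 measured markers of cell division rose in hormone horns. Among the neutrophil markers, TREM1 was well above background on 9 arrays and the other 4 on all 19. Their part in the chaperone results was not tested. When gilt 47 was left out together with the hormone horn of gilt 36, 8 of the 11 genes still rose in hormone horns (CANX, CCT3, DNAJB11, DNAJC3, HSPA8, HSPH1, PPIA and SEC61A1), HSPA1L fell, and 0 of the 40 passed in placebo horns.

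The scaling of the arrays bears on the directions. Centring each array on its probes with a symbol, in place of the 75th percentile, moved the median of all probes by -0.28 log2 units in hormone horns and by -0.25 in placebo horns. Under it 5 of the 40 genes rose in hormone horns (DNAJB11, DNAJC3, HSPA8, PPIA and SEC61A1) and 4 fell (DDIT3, DNAJC14, HSPA1L and SEC62), against 11 and 1. Over all 39071 probes 1124 rose and 6756 fell in hormone horns under this centring, so falls were common across the array. In placebo horns 1 of the 40 genes rose and 3 fell, against 3 and 1, with 559 and 4913 of all probes. The median of the 40 genes minus that of all probes, 0.34 in hormone horns, cannot change under such centring. It was 0.27 after quantile normalization and 0.13 with slide as a term, a fit in which treated and control gilts are compared through gilts 36 and 9 alone. None of the 12 genes changed its sign under any alternative run. Each scan day held 1 or 2 of the control gilts, and within each of the 3 days all 12 genes kept their direction, at sizes of 0.32 to 1.33, 0.28 to 2.09 and 0.34 to 1.14 log2 units on days 1, 2 and 3. The 12 genes were picked by a fit of these same arrays, so an unchanged sign, by day or by setting, is no separate support. Days 1 and 3 held 1 control gilt each, so the sizes by day are a description and say nothing of the spread between control animals there.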

How the data were processed

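Total RNA of 19 endometrial samples was measured on Agilent arrays in 1 colour. The deposited intensity values are background-subtracted processed signals, made with Feature Extraction 10.7.3.1 per the file headers, whereas the submitters' processing notes name version 9.1. The authors' deposited log2 value table (37744 probes) was used as an alternative. Its columns correlated with the arrays at 0.996 to 0.999 and had medians of 7.72 to 7.83, and how the authors scaled it further is unknown.

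Here log2 signals were set against each array's 75th percentile. Control spots and 891 outlier values were left out, spots of a probe were averaged, and a probe was tested if 4 or more arrays had it well above background (39071 probes). Symbols came from RefSeq, which matched 6876 of 43603 probes to 1 gene and gave 6768 a symbol. All groups were fitted with limma 3.58.1 in R 4.3.3, with the gilt as a random block (correlation 0.536), a control gilt's horns weighted equally, and Benjamini-Hochberg adjustment over all probes. The fit was tested on simulated data. Replicate numbers name the animal: deviations of the horns of a gilt correlated at 0.336 to 0.795. Precision is limited by the number of arrays. Control gilts' arrays serve both comparisons against them.

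Values in every array or group were given for up to 5 rises and 5 falls per comparison, for the 5 smallest p where none passed, and for listed genes of these pathways. The members and lists were chosen with earlier results of these data known. Alternatives covered background, scaling, filter, probe choice, block, slide, scan day, horn mark and each gilt left out.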

Additional observations from a re-analysis of the deposited data

Results flagged for a closer look

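Single arrays that stood far from the rest of their group were looked for in 159 groups of 4 to 6 arrays. There were 15, and chance flags about 1 in 20 groups, or 7.95 here. Of these, 7 were arrays of gilt 36. Its hormone horn was the far array for HSPA6 (-3.55), HSP70.2 (2.07), FKBPL (-1.89), HSPB1 (5.30), HSPA8 (7.80) and SEC62 (4.04), and its placebo horn for HSPA6 (-3.47), all as log2 signal over the 75th percentile of the array. The hormone horn of gilt 36 was the highest of its group for HSPA8, HSPB1 and FKBPL and the lowest for HSPA6, HSP70.2 and SEC62.

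In control gilts, the L horn of gilt 28 was far below the other L horns for FKBP4 (-2.58) and ATF6B (-4.68). The P horn of gilt 9 was high for HSPA1L (-0.98) and SSR1 (3.64) and low for PPIA (5.72). The P horn of gilt 46 was high for DNAJB11 (2.09). The remaining arrays were the L horn of gilt 46 for BAG6 (4.78) and the P horn of gilt 14 for DNAJC6 (-8.74), the last for a gene well above background on 4 arrays.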

How the results depend on the processing

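Hormone horns against control gilts gave 12 calls among the 40 genes, and placebo horns against control gilts 4 (11.8% and 4.49% of all probes). With the replicate block left out and control horns averaged, they gave 7 and 0 (6.46% and 0% of all probes). Placebo horns gave 9 with no replicate block on single horns (9.13% of all probes). With slide as a term, a fit that rests on gilts 9 and 36, hormone horns gave 6. Over all probes 14.2% passed in that fit, near the share of the 40 genes. DNAJA4 reversed to 0.70 with slide as a term (adjusted p = 0.0344). Of the 12 calls only CCT3, HSPA8 and PPIA remained, and DNAJA4, FKBP10 and, as lower, SEC62 were new. DNAJC3 and SEC61A1, which passed whichever gilt was left out, did not pass with slide as a term. Within scan days 1, 2 and 3 both comparisons gave 0, where days 1 and 3 hold 1 control gilt each and so no spread between control animals. Placebo horns gave 0 with only the groups compared, with horn mark as a term, and when gilt 47 was left out together with the hormone horn of gilt 36, a setting chosen after seeing the data. Over all probes 0.0358%, 0.0512% and 1.02% passed in these settings, in that order. Leaving out each gilt gave 5 to 13 calls in hormone horns and 0 to 9 in placebo horns (3.73% to 13.4% and 0% to 8.21% of all probes). Hormone against placebo horns and P against L horns gave 0 in every setting run. The number of gilts limits all counts, and the cause of these changes was not tested.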
